A study of Mus musculus with 7 samples.

Results

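The 10 genes described here encode transcription factors that work together in blood stem cells. They are the 7 core factors Gata2, Runx1, Erg, Fli1, Tal1, Lyl1 and Lmo2, often called the haematopoietic heptad, and the 3 partners Ldb1, Cbfb and Etv6. They were taken by gene symbol from a table of 54347 genes, and each symbol matched 1 row. The table holds RNA sequencing of LT-HSCs, long-term stem cells of the marrow that sustain the blood system for life. The cells were sorted from 4 WT (Emcn+/+) mice and 3 KO (Emcn-/-) littermates, with 1 mouse per library, after lineage depletion and staining for CD48, CD150, c-kit, Sca-1 and CD16/CD32 beside lineage antigens. Emcn encodes the surface sialomucin endomucin.

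All mice were female and carried the same strain label, C57BL/6N-EMCN em1(IMPC)Wtsi /WtsiH. Neither group received a treatment, per the labels. The sources used here do not give the age of the mice or the exons that the allele removes. Libraries are named by genotype and mouse number.

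In blood stem and progenitor cells the core factors occupy many of the same enhancers, including enhancers of their own genes. GATA2 binds GATA sites, ERG and FLI1 bind ETS sites, RUNX1 binds RUNX sites, and TAL1 and LYL1 bind E-boxes as dimers with E proteins. LMO2 does not bind DNA. It bridges the TAL1 or LYL1 dimer to a GATA factor, with LDB1 as the scaffold, while CBFB strengthens DNA binding by RUNX1. ETV6 is an ETS-family repressor needed by adult stem cells.

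Related members were compared by sequence first, since reads from a shared stretch can be split between genes. The coding stretches of 90 bases that were most alike in Erg and Fli1, and in Tal1 and Lyl1, are shown in the GENCODE M21 transcripts (GRCm38), 5′ to 3′ along each gene. Capitals mark the bases that differ within a pair.
Erg: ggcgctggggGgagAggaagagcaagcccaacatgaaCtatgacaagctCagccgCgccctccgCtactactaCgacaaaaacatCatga
Fli1: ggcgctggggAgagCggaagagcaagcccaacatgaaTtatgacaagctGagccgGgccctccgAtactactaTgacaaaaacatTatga
Tal1: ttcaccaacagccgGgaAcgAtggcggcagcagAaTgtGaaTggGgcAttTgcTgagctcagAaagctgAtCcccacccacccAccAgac
Lyl1: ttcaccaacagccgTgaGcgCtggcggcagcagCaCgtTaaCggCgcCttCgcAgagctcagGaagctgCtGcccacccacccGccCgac

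Erg and Fli1 differed at 8 of these 90 bases, and the longest identical run was 22 bases. Tal1 and Lyl1 differed at 16, with a longest run of 14. The Erg stretch lies in exon 11 on the minus strand (chr16:95361111-95361200) and the Fli1 stretch in exon 9 on the minus strand (chr9:32424090-32424179). The Tal1 stretch lies in exon 5 on the plus strand (chr4:115068306-115068395) and the Lyl1 stretch in exon 4 on the plus strand (chr8:84703927-84704016). Over whole transcripts, Erg and Fli1 shared 0 sequences of 31 bases, and Tal1 and Lyl1 shared 0. Of all 31-base sequences of a member, those also found in transcripts of another gene made up 0% for Gata2, Tal1, Lyl1, Lmo2 and Cbfb. The share was 0.345% for Erg, 0.467% for Fli1, 0.795% for Runx1, 1.86% for Etv6 and 3.2% for Ldb1. The only 31-base sequences shared by any pair of members were 2 between Runx1 and Erg.

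Genes on the opposite strand overlapped exons of 4 members. Pprc1 shared 177 bases with Ldb1, Gm17089 shared 135 with Etv6, Gm26626 shared 106 with Runx1 and Nfix shared 4 with Lyl1. The library kit was a stranded one, but the sources used here do not say whether the counting used strand, and reads in these bases cannot be assigned. The Lyl1 identifier carries another version than in M21, so its gene model in the count table may differ from the one shown.

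Library totals ran from 6444134 to 11101774 counts. Emcn held 130 to 327 counts in WT libraries and 1, 0 and 0 in KO libraries, as the labels state. The stem cell markers Slamf1, Procr, Hlf, Mecom, Ly6a, Kit, Fgd5, Ctnnal1, Hoxb5, Tcf15 and Vwf were all detected. CPM here are counts relative to library size, scaled between libraries with TMM factors. The 11 markers summed to 1233 CPM in wt_284, to between 1813 and 1903 CPM in wt_290, wt_310 and wt_312 and to between 1678 and 2010 CPM in KO. The library wt_284 stood apart: its 14 neutrophil and monocyte markers summed to 12400 CPM, while in the remaining WT libraries the sum was 245 to 1200 CPM and in KO 217 to 608 CPM. Its 11 erythroid markers in the table summed to 4364 CPM, against 624 to 1392 CPM and 676 to 849 CPM. Member results are therefore also given without wt_284. With all 7 libraries the log2 fold change, KO minus WT, was negative for all 14 neutrophil and monocyte and all 11 erythroid markers. It was also negative for all 5 mast cell and basophil and all 3 lymphoid markers tested. Of all 15372 genes tested, 8055 were negative. The signs of these markers were not counted without wt_284. Fewer cells of a type and less RNA per cell cannot be told apart in such bulk libraries.

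Endothelial cells and mast cells also use several of these factors. Of 12 endothelial markers, Cdh5, Cldn5 and Sox17 stayed under 1 CPM in every library. Kdr stood at 6.03 to 14.2 CPM, while Stab2 reached 8.71 CPM in wt_310 and Sox18 reached 4.22 CPM in ko_306. The markers summed to 232 to 368 CPM in WT and 268 to 337 CPM in KO. Tie1, Robo4 and Vwf, which blood stem cells also express, made up most of this sum. The sum also holds Emcn itself, at 15.8 to 34.1 CPM in WT and at most 0.0861 CPM in KO. Of 9 mast cell and basophil markers, Cma1 and Tpsb2 were at 0 in every library, and the sum was 214 CPM in wt_284, 10.5 to 38.1 CPM in wt_290, wt_310 and wt_312 and 0.746 to 12.6 CPM in KO.

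All 10 members were well expressed in every library, and none passed the test between genotypes. Counts of a member in a library ran from 369 to 6486. Per length, member means lay between percentiles 87.4 and 99 of the 15372 genes tested. In edgeR's quasi-likelihood test 0 of 10 members were called at an adjusted p under 0.05, where 0.00651% of all genes were (Emcn alone), and the smallest adjusted p of a member stood at 0.992. Members with an unadjusted p under 0.05 numbered 0 too, against 3.27% of all genes. DESeq2 called 0 members, against 0.0608% of all genes, and had 0 at the unadjusted p, against 3.52%. Limma-voom called 0 members and 0 genes, Emcn included (adjusted p 0.991, log2 fold change -8.32), so that its count of calls is no measure of the members. It had 0 members at the unadjusted p, against 2.86% of all genes. WT and KO libraries overlapped for all 10 members, while they did not overlap for 4.86% of all genes.

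**Figure D1:**
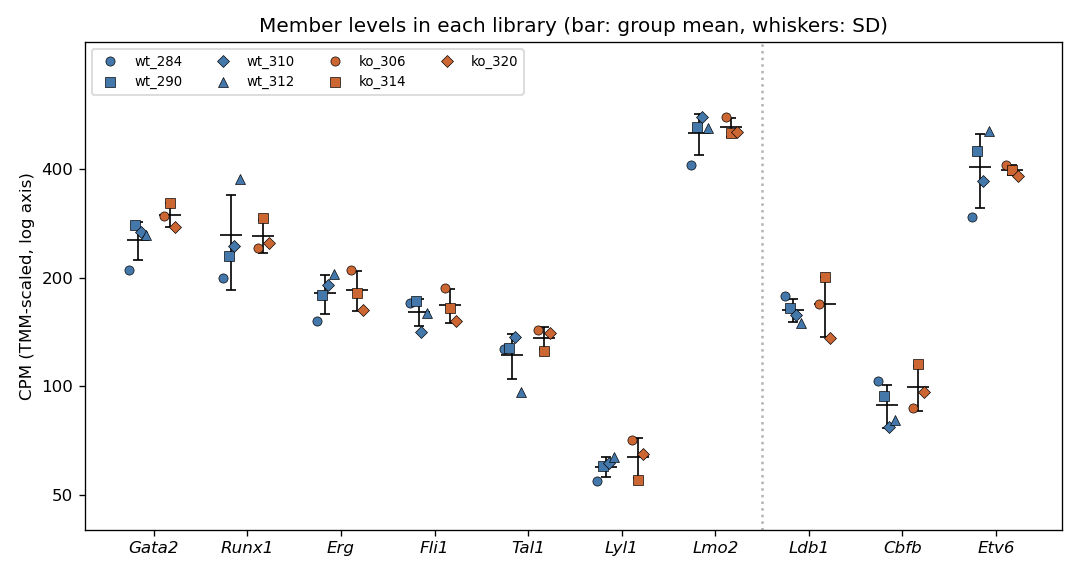
CPM of each member (log axis) in 4 WT libraries (blue) and 3 KO libraries (orange), with group means as bars and SD as whiskers; core factors are left of the dotted line. The KO points of every gene lie among or close to its WT points, and wt_284 (blue circle) is the lowest library for Gata2, Runx1, Erg, Lyl1, Lmo2 and Etv6.

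With all 7 libraries the intervals of the differences were narrow. For all 10 members the 95% interval of the KO to WT difference lay within 1.5-fold in either direction. The same held for 20.9% of all genes tested and 32.5% of those with a mean of at least 10 CPM. Neither set was matched to the members for level. The member intervals together ran from -0.44 to 0.54 on the log2 scale. Leaving out 1 library kept all 10 within 2-fold and between 7 and 9 within 1.5-fold, and it was 9 without wt_284, with Cbfb outside. With the myeloid marker level of each library as a covariate only 6 members stayed within 1.5-fold, with Runx1, Tal1, Cbfb and Etv6 outside. This level, the mean log2 CPM of 14 markers, was 8.21, 4.98, 5.14 and 2.43 in wt_284, wt_290, wt_310 and wt_312. In ko_306, ko_314 and ko_320 it was 3.46, 2.13 and 2.29, so level and genotype were partly confounded. With only the mice numbered above 300, which leaves out wt_284 and wt_290 but no KO library, 7 members stayed within 1.5-fold. The log2 fold change was positive for 8 members and negative for 2, with a median of 0.06, against -0.02 for all genes. These counts moved with single libraries. Without wt_284 there were 6 positive and 4 negative, without ko_306 there were 5 of each with a median of 0.006, without ko_320 all 10 were positive with a median of 0.14 and without wt_312 all 10 were positive with a median of 0.11.

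**Figure D2:**
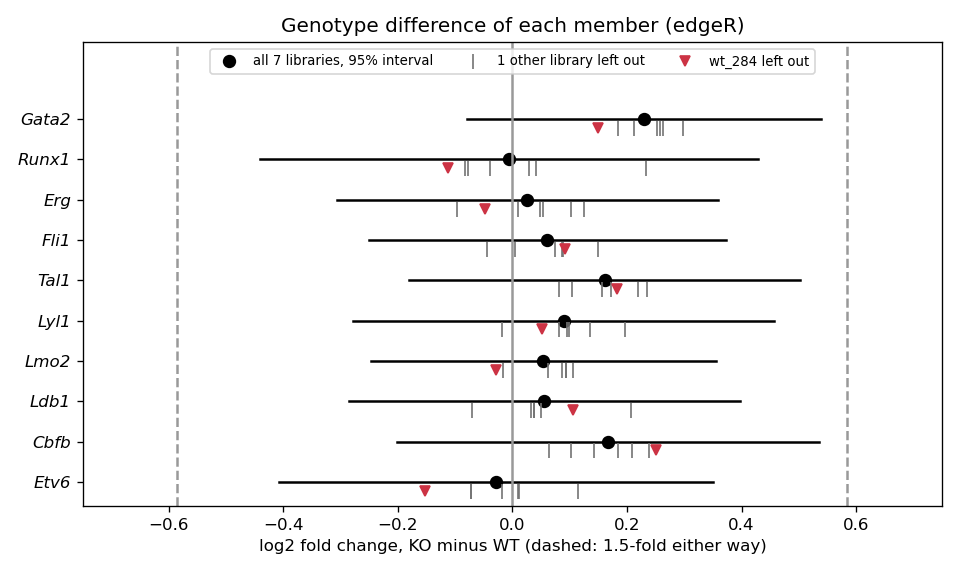
Log2 fold change of each member, KO minus WT, with the 95% interval of the edgeR fit (black), the value with wt_284 left out (red triangle) and with each other library left out (grey ticks). Every interval crosses 0 and stays inside the dashed 1.5-fold lines.

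Gata2, the zinc finger factor whose dose is critical for stem cell maintenance, had the largest difference with all 7 libraries. In 5 of the 15 alternatives another member did: Cbfb without wt_284, without ko_306 and in mice above 300, Tal1 without ko_314 and Runx1 with the myeloid covariate. The Gata2 locus is on chromosome 6 (88193891 to 88207032, plus strand). Its level was 210.1, 279.8, 269 and 262 CPM in wt_284, wt_290, wt_310 and wt_312. The KO libraries ko_306, ko_314 and ko_320 held 297, 323 and 277 CPM. Only wt_290 reached into the KO range, and all 3 KO libraries were above the WT mean. The WT mean was 255 ± 30.9 CPM (SD, n = 4) and the KO mean 299 ± 23.0 CPM (SD, n = 3). This was a log2 fold change of 0.23 ± 0.14 (SE), with a 95% interval from -0.08 to 0.54 and an adjusted p of 0.992 in edgeR. Without wt_284 it was 0.15, and with the myeloid covariate 0.088. The direction was the same in all 15 alternatives.

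Tal1 and Lyl1 encode related E-box factors that can stand in for each other in adult stem cells. Tal1 (chromosome 4, 115056426 to 115071755, plus strand) stood at 127, 128, 137 and 96.6 CPM in wt_284, wt_290, wt_310 and wt_312. The KO libraries held 143, 125 and 141 CPM in ko_306, ko_314 and ko_320. The low value of wt_312 set the WT mean apart, at 122 ± 17.5 CPM (SD, n = 4) against 136 ± 9.92 CPM (SD, n = 3) in KO. The log2 fold change was 0.16 (-0.18 to 0.50), and it was 0.18 without wt_284, 0.08 without wt_312 and 0.33 with the myeloid covariate.

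Lyl1 (chromosome 8, 84701457 to 84704715, plus strand) was the least counted member. It ran from 54.4 to 63.6 CPM in WT and from 55.0 to 71.0 CPM in KO, with means of 59.8 ± 3.87 CPM (SD, n = 4) and 63.6 ± 8.06 CPM (SD, n = 3). Its log2 fold change was 0.09 (-0.28 to 0.46). The coefficient of variation was 6.47% in WT, where counting error alone gives 4.54% at these depths, and 12.7% in KO, where it gives 4.38%. Without ko_306, its highest library, the log2 fold change was -0.018, and without wt_284 it was 0.051. As a ratio of counts, not corrected for length, Tal1 had between 2.02 and 2.33 times the counts of Lyl1 in 6 libraries and 1.52 times in wt_312. In KO the ratio of Tal1 to Lyl1 counts was 2.02 to 2.27, inside the WT range.

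Erg and Fli1 encode related ETS activators, and the sequences above show the coding stretch in which they are most alike. Erg (chromosome 16, 95359169 to 95586593, minus strand) stood at 151, 179.5, 191 and 204 CPM in wt_284, wt_290, wt_310 and wt_312. It stood at 209.8, 181 and 163 CPM in ko_306, ko_314 and ko_320, so the groups lay over each other. The means were 182 ± 22.4 CPM (SD, n = 4) and 185 ± 23.5 CPM (SD, n = 3), and the log2 fold change was 0.03 (-0.31 to 0.36). Without wt_284 it was -0.05, and without ko_306 -0.10.

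Fli1 (chromosome 9, 32422204 to 32542861, minus strand) held 169.9, 173, 142 and 159 CPM in wt_284, wt_290, wt_310 and wt_312, and 187, 165 and 151 CPM in ko_306, ko_314 and ko_320. Unlike Erg it was not low in wt_284. Its log2 fold change was 0.06 (-0.25 to 0.37), 0.092 without wt_284 and -0.044 without ko_306. The ratio of Erg to Fli1 counts was 0.891, 1.04, 1.35 and 1.28 in wt_284, wt_290, wt_310 and wt_312. In KO it was 1.08 to 1.12, inside the WT range.

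Runx1, which encodes the DNA-binding subunit of core-binding factor, had the widest spread within groups. Its locus is on chromosome 16 (92601466 to 92826149, minus strand). Its level was 199, 229, 246 and 375 CPM in wt_284, wt_290, wt_310 and wt_312. The KO libraries held 242, 293 and 249.6 CPM in ko_306, ko_314 and ko_320, all inside the WT range. The WT mean was 262 ± 77.7 CPM (SD, n = 4) and the KO mean 261 ± 27.4 CPM (SD, n = 3). The log2 fold change was -0.01, with an interval from -0.44 to 0.43. A single library moved it either way, to 0.23 without wt_312 and to -0.11 without wt_284, and with the myeloid covariate it was -0.37.

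Cbfb, its non-DNA-binding subunit (chromosome 8, 105170674 to 105217989, plus strand), stood at 103, 93.9, 76.9 and 80.7 CPM in wt_284, wt_290, wt_310 and wt_312. It stood at 86.9, 115 and 96.5 CPM in ko_306, ko_314 and ko_320. The order of the WT libraries was thus nearly the reverse of that for Runx1. The log2 fold change was 0.17 (-0.20 to 0.54), 0.25 without wt_284, 0.06 without ko_314, 0.29 with the myeloid covariate and 0.34 in mice above 300. Runx1 had 1.93 times the counts of Cbfb in wt_284, and 2.44, 3.20 and 4.65 times in wt_290, wt_310 and wt_312, against 2.54 to 2.78 times in KO. The spread of this ratio among WT libraries was thus wider than among KO libraries, and the KO values lay inside it.

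Lmo2, the LIM-only bridging protein, was the most abundant member. On the plus strand of chromosome 2 (103957986 to 103981878), it stood at 410.1, 525, 557 and 522 CPM in wt_284, wt_290, wt_310 and wt_312, and at 559, 504 and 507 CPM in ko_306, ko_314 and ko_320. Apart from wt_284 all libraries lay within 504 to 559 CPM. The means were 504 ± 64.3 CPM (SD, n = 4) and 523 ± 30.9 CPM (SD, n = 3), with a log2 fold change of 0.05 (-0.25 to 0.35), or -0.03 without wt_284 and -0.017 without ko_306.

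Ldb1, the scaffold that holds LMO2 (chromosome 19, 46031570 to 46045214, minus strand), ran from 150.1 to 178 CPM in WT and from 136 to 200.4 CPM in KO. Here the KO libraries gave both the lowest value (ko_320) and the highest (ko_314). The log2 fold change was 0.06 (-0.29 to 0.40), or 0.105 without wt_284, and it turned to -0.07 without ko_314. Lmo2 had 2.31 to 3.55 times the counts of Ldb1 in WT and 2.51 to 3.72 times in KO.

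Etv6 (chromosome 6, 134035700 to 134270158, plus strand) stood at 294, 448, 371 and 510.2 CPM in wt_284, wt_290, wt_310 and wt_312. The KO libraries lay close together inside this range, at 411, 399 and 384 CPM in ko_306, ko_314 and ko_320. The log2 fold change was -0.03 (-0.41 to 0.35), -0.15 without wt_284, 0.12 without wt_312 and -0.33 with the myeloid covariate. The coefficient of variation was 23.1% among WT libraries and 3.33% among KO libraries. For Runx1 it was 29.6% and 10.5%. The WT value was above the KO value for 5 of 10 members, and a difference of spread between genotypes was not tested.

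Across libraries some members varied alike and others in opposite ways. In wt_284, 7 of 10 members were below their means, 6 of them at their lowest, and in ko_306, 8 of 10 were above, with Erg, Fli1, Tal1, Lyl1 and Lmo2 at their highest. Over the 7 libraries, which share their scaling, Pearson r of log2 CPM was 0.83 for Erg and Lmo2 (0.67 without wt_284) and 0.77 for Runx1 and Etv6 (0.65 without it). It was -0.74 for Runx1 and Tal1 (-0.90 without it). Other pairs changed with that library. For Gata2 and Lmo2 r was 0.73 (-0.26 without wt_284), and for Lmo2 and Etv6 it was 0.67 (-0.17 without it). For Gata2 and Ldb1 it rose from 0.17 to 0.84 without wt_284. These pairs were picked from all pairs of members, and their values describe 7 libraries and carry no test. In wt_312 Runx1 and Etv6 were highest, by 0.55 and 0.36 above their log2 means, and Tal1 was lowest, by -0.40. The r of Runx1 with Etv6 and with Tal1 was not computed without wt_312, so how far it rests on that library is not known. The 7 core factors summed to 1322, 1573, 1602 and 1683 CPM in wt_284, wt_290, wt_310 and wt_312, and to 1708, 1645 and 1553 CPM in ko_306, ko_314 and ko_320. The low sum of wt_284 stands beside its high neutrophil, monocyte and erythroid marker sums, and their part in it was not tested. Among the other 6 libraries the sums of the 2 genotypes overlapped.

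**Figure D3:**
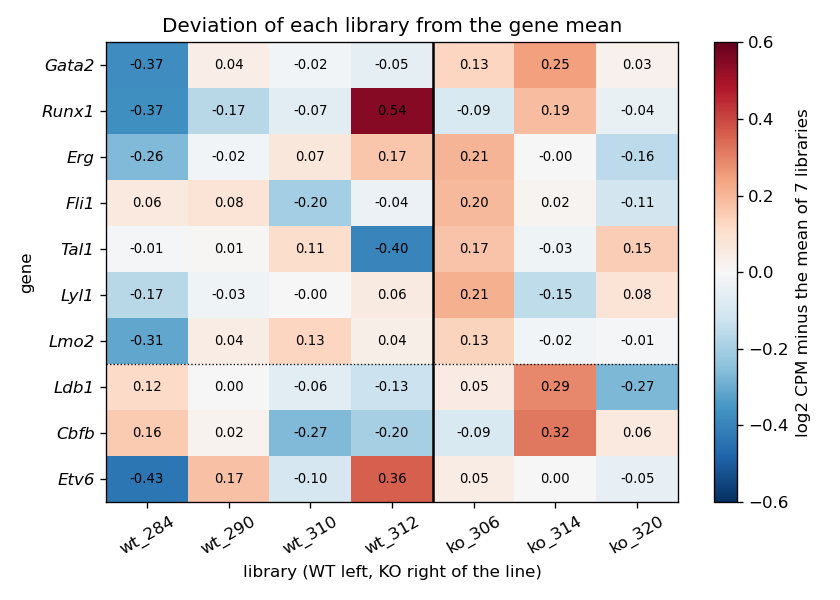
Log2 CPM of each member in each library minus its mean over the 7 libraries, with WT left and KO right of the solid line and core factors above the dotted line. The largest deviation is Runx1 in wt_312 (0.55), and wt_284 is low for 6 genes but not for Fli1, Tal1, Ldb1 and Cbfb.

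Most members varied less between libraries of a group than most well-counted genes. The SD of log2 CPM within groups was under the 25th percentile of the 9896 genes with a mean of at least 10 CPM for 8 of 10 members. It was lowest for Lyl1 (0.14, percentile 6.9), followed by Fli1 (0.14, percentile 7.1). Etv6 (0.27, percentile 40.4) and Runx1 (0.32, percentile 53.4) were the exceptions. These are descriptions of the same 7 libraries, without a test. By mean CPM the members stood at percentiles 78.2 to 98.9 of the genes tested, and counting error is smaller at higher counts. The comparison was not matched for level, and the part of level in these percentiles was not tested.

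Levels of different genes were compared per length, as CPM per kb of annotated exon over all 7 libraries. Lmo2 stood highest at 236 ± 23.1 CPM per kb (SD, n = 7), above every other member in all 7 libraries. Etv6 followed at 67.2 ± 11.2, Erg at 52.8 ± 6.04, Gata2 at 50.8 ± 6.43 and Fli1 at 47.0 ± 4.27. The scaffold Ldb1 was at 35.8 ± 4.48, Lyl1 at 34.1 ± 3.20, Tal1 at 29.3 ± 3.58, Cbfb at 26.8 ± 3.84 and Runx1 at 21.8 ± 4.75. All ranges of neighbours in this order after Lmo2 overlapped, and Erg was above Gata2 in 4 of 7 libraries. Etv6 was above Erg, Fli1 above Ldb1 and Lyl1 above Tal1 in 7 of 7. Per length, Lyl1 thus stood above Tal1 although Tal1 had more counts.

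**Figure D4:**
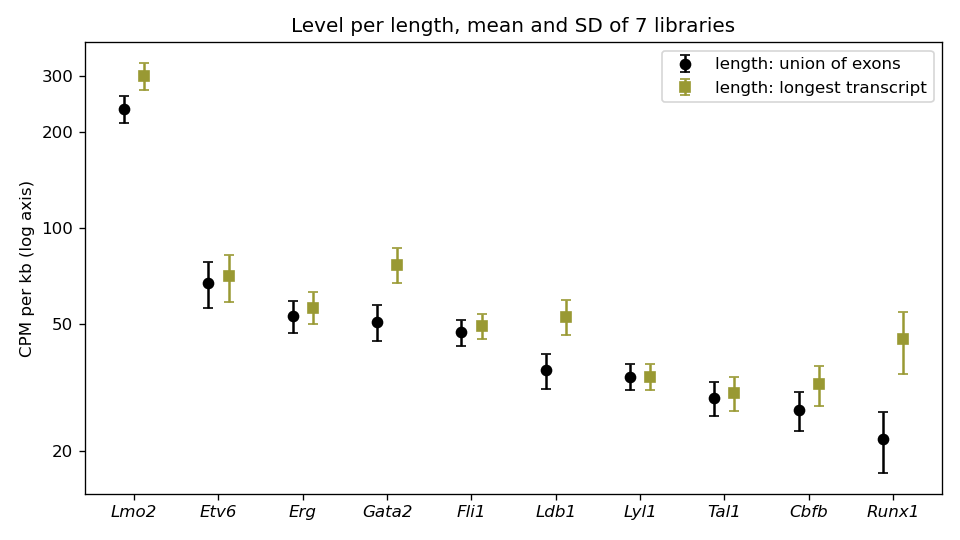
Mean CPM per kb of each member over 7 libraries (log axis, whiskers SD), with length taken as the union of annotated exons (circles) or the longest transcript (squares). Lmo2 is highest by both, and Gata2, Ldb1 and Runx1 move most between them.

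The order below Lmo2 depended on the length used. With the longest annotated transcript as length, Gata2 came second at 76.7 CPM per kb and Runx1 rose from the last to the seventh place at 44.7. By that length Fli1 was above Ldb1 in only 3 of 7 libraries, while Etv6 stayed above Erg and Lyl1 above Tal1 in 7 of 7. Runx1 has 12025 bases of annotated exons in all but a longest transcript of 5861 bases. Which transcripts these cells use is not given by a table of gene counts.

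Genes that act with the members were read from the same fit, in lists drawn up with earlier results of these data known. Over the 77 tested genes of these lists that are not members, edgeR called 0, and 2 had an unadjusted p under 0.05. DESeq2 gave a p for 75 of them, not for Irf8 and Ebf1, called 0 and had 1 at that p. Limma-voom, which did not call Emcn either, called 0 and had 2.

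Cofactors of the complexes, such as the E proteins Tcf3, Tcf4 and Tcf12 and the corepressor Cbfa2t3, showed 0 calls in either direction among 19 tested. Of these 10 had positive and 9 negative log2 fold changes, with a median of 0.01, and 17 intervals lay within 2-fold. The smallest p belonged to the acetyltransferase gene Ep300, at -0.26 (-0.66 to 0.13) or -0.095 without wt_284, and to the LIM-only gene Lmo4, at -0.59 (-1.50 to 0.33). Lmo4 stood at up to 63.9 CPM in WT and turned to 0.02 without wt_284. Cbfa2t3 followed at 0.17 (-0.14 to 0.48).

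Paralogs of the members likewise showed 0 calls among 15 tested, with 5 positive and 10 negative log2 fold changes and a median of -0.07. Tal2 did not pass the filter. The smallest p belonged to the ETS genes Ets2, at -0.54 (-1.23 to 0.16), and Elf1, at 0.22 (-0.08 to 0.53). Ets2 was at -0.12 without wt_284 and -0.004 with the myeloid covariate. Gata1, the erythroid GATA factor that replaces GATA2 during red cell formation, had a WT mean of 15.3 ± 6.31 CPM (SD, n = 4) and a KO mean of 9.75 ± 3.77 CPM (SD, n = 3). Its log2 fold change was -0.65 (-1.56 to 0.25), and -0.33 without wt_284, the library with the high erythroid marker sum given above.

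Other stem cell transcription factors showed 0 calls among 20 tested, with 12 positive and 8 negative log2 fold changes and a median of 0.10, or 0.01 without wt_284. Mecom, which encodes EVI1, had 0.28 (-0.14 to 0.70), or 0.15 without wt_284 and 0.49 without wt_312. Meis1, a homeobox cofactor of HOX proteins, had 0.29 (-0.26 to 0.83), or 0.11 without wt_284 and 0.53 without wt_312, and turned to -0.01 with only the mice numbered above 300. Hhex had -0.06 (-0.45 to 0.33). Spi1, which encodes PU.1, had -0.21 (-1.44 to 1.02) and turned to 0.41 without wt_284. Tcf15 had -0.43 (-1.14 to 0.28). Hoxa9 had 0.24 (-0.18 to 0.65), with 35.8 to 49.8 CPM in WT and 50.4 to 60.0 CPM in KO, and was 1 of the 2.43% of genes with every KO library above every WT library. Its log2 fold change was 0.14 without wt_284 and 0.14 without ko_306.

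Factors of committed lineages were the list with the widest spread. Of 13 tested, 0 were called, 1 log2 fold change was positive and 12 were negative, and the median was -1.05. Pax5, Tcf7 and Bcl11b did not pass the filter. Irf8, a factor of monocytes and dendritic cells, had -2.67 (-4.74 to -0.61). Its WT libraries ranged from 12.3 to 89.9 CPM and its KO libraries from 3.57 to 6.26 CPM. No KO library reached the lowest WT value. Irf8 was thus among the 4.86% of genes without overlap between groups, counted in either direction. Cebpe, a granulocyte factor, had -3.92 (-7.13 to -0.70), with 1.16 to 19.6 CPM in WT and 0 to 1.21 CPM in KO. Mitf had -0.60 (-1.26 to 0.06). In edgeR with no filter on low counts, which called 0.272% of all genes, Cebpe was called at an adjusted p of 0.0156. Its fold change is set against a KO level near 0. Without wt_284 Irf8 had -1.48 and the list median was -0.23 over 12 tested genes. Cebpe did not pass the filter without wt_284, without wt_290 or with only mice above 300. With the myeloid marker level as a covariate Irf8, itself 1 of those 14 markers, had -0.92 and Cebpe had -1.43. The erythroid markers were also high in wt_284, and so were 12 lymphoid markers, which summed to 153 CPM there, to 11.9 to 20.8 CPM in wt_290, wt_310 and wt_312 and to 11.7 to 17.1 CPM in KO. The part of the erythroid and lymphoid markers was not tested.

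Surface and platelet-type genes downstream of the factors had 0 calls among 17 tested, with 10 positive and 7 negative log2 fold changes and a median of 0.01. Procr, a surface receptor that marks stem cells, had 0.39 (-0.14 to 0.91). Angpt1 had 0.26 (-0.14 to 0.66) and the platelet glycoprotein gene Gp9 had 1.01 (-0.43 to 2.46). Gp9 was at 18.9 CPM in ko_320 and at 7.41 and 2.54 CPM in ko_306 and ko_314, and its log2 fold change was 0.095 without ko_320. Without that library Procr had 0.17, and Angpt1 had 0.11 without wt_284.

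**Figure D5:**
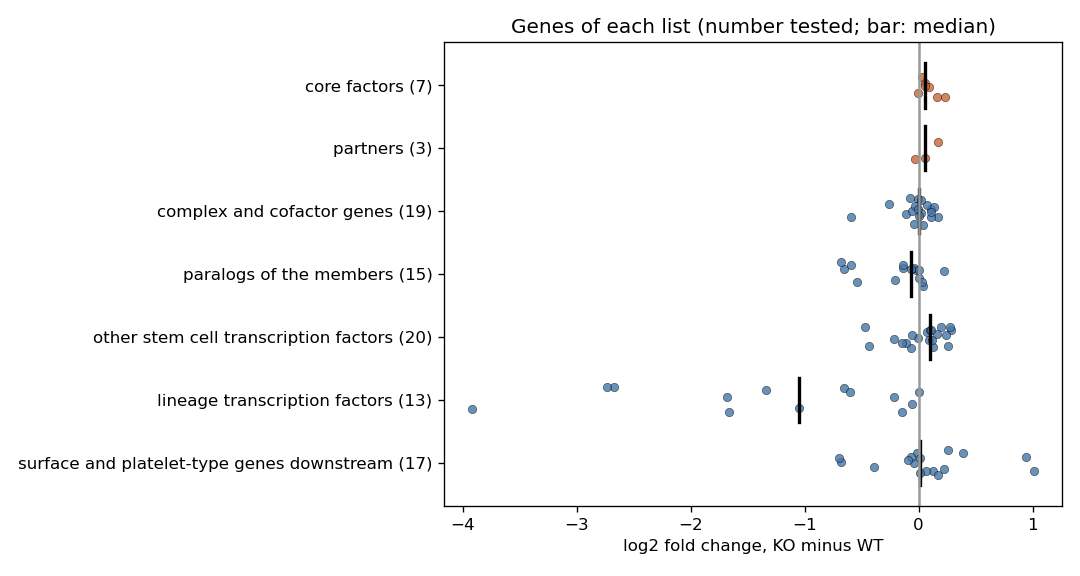
Log2 fold change, KO minus WT, of the tested genes in each list (points), with the number of genes in brackets and the median as a bar; members are orange. The 10 members lie between -0.03 and 0.23, while lineage transcription factors reach -3.92 with a median of -1.05.

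Promoters of 8 members were found in RefSeq (GRCm38.p6) as windows from 250 bases before to 50 bases after a start, 15 in all. They were searched on both strands for the GATA-type letters AGATAA, the ETS-type letters CGGAAG, the E-box-type letters CAGNTG and the RUNX-type letters TGTGGT, where N is any base. None of these motifs holds another whole. The E-box letters were present in a promoter of 6 members (Erg, Gata2, Ldb1, Lyl1, Runx1 and Tal1), or 6 of 15 windows, against 51.4% of all 32851 windows. The GATA letters were in 3 of 15 (Erg, Ldb1 and Tal1) against 11.2%, the ETS letters in 2 of 15 (Ldb1 and Lyl1) against 16.9%, and the RUNX letters in 1 of 15 (Runx1) against 16.8%. These matches are letters only.

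The genes whose pattern over the 7 libraries was most like the mean of the core factors were Hoxa9, Col4a2, Col16a1, Pgrmc1 and Tasor2. Among 9886 other genes with a mean of at least 10 CPM, these had the highest Pearson r, from 0.96 to 0.98, and 39 genes were above 0.9. All points share the scaling of the same libraries. For Hoxa9 r was 0.98 and Spearman's rho 0.64, and r fell to 0.40 without wt_284 and ko_306, the libraries farthest from the median. For Tasor2 r was 0.96 with rho 0.93, and 0.95 without them. Without wt_284 and ko_306 r was 0.37 for Col16a1, 0.61 for Pgrmc1 and 0.81 for Col4a2. The likeness of Hoxa9 and Col16a1 thus rested most on these libraries.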

How the data were processed

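The authors made the deposited table of estimated counts per gene (whole numbers, unscaled, 1 column per mouse) with cutadapt and Salmon, per the submitters' processing notes. The sources used here give no versions, annotation or rounding step. All 7 columns matched a sample by name. Rounded counts of 15372 genes kept by filterByExpr were fitted with TMM factors in edgeR 4.0.16 (R 4.3.3). Its robust quasi-likelihood test compared KO with WT, with Benjamini-Hochberg adjustment and a threshold of 0.05. The SE of a log2 fold change came from its ratio to the root of F. The labels do not say which mice shared a litter, and no litter term was fitted. DESeq2 1.42.0 and limma 3.58.1 (voom with quality weights) were alternatives. All were run on simulated counts with known changes, drawn from the means and dispersions of the edgeR fit. These held no outlying library such as wt_284, and a limit was set only on the median recovered fold change. Gene lengths and positions are from GENCODE M21 (98.1% of identifiers matched). Members and lists were chosen with earlier results of these data known. Named genes are the members, the 3 smallest p of each list, and Spi1, Meis1, Mecom, Hhex and Gata1. The sources name no molecular identifiers, so counting errors cover counting only. 1 gene of the marker and downstream lists is not reported here.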

Additional observations from a re-analysis of the deposited data

How the results depend on the processing

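No member was called under any of the 15 alternatives, and Gata2, Tal1 and Cbfb kept their direction in all of them. No paired analysis was possible because every mouse number is unique. Over all genes edgeR called 1, DESeq2 called 12 and limma-voom called 0. In edgeR it was 81 genes with no filter, 7 genes with only mice numbered above 300 and 2 genes with the myeloid marker level as a covariate. Leaving out 1 library gave 1 to 3. Log2 fold changes that changed sign were Runx1 at 0.007 with a filter of 1 CPM in 3 libraries and 0.11 in limma-voom, Erg at -0.089 and Lmo2 at -0.04 with only mice above 300, and Erg at -0.11 and Lmo2 at -0.071 with the myeloid level. With that covariate, which was partly confounded with genotype, Runx1 had -0.37 at an unadjusted p of 0.0412 in edgeR (adjusted 0.986). Other members kept their direction but moved by over 1.5 times with that covariate. They were Etv6 to -0.33 (unadjusted p 0.0566 in edgeR), Tal1 to 0.33 (0.0916), Cbfb to 0.29, Gata2 to 0.088, Ldb1 to 0.15, Fli1 to 0.13 and Lyl1 to 0.033. With only mice above 300 such members were Cbfb at 0.34, Runx1 at -0.24, Etv6 at -0.14, Fli1 at 0.16, Ldb1 at 0.14 and Lyl1 at 0.035. Leaving out 1 library gave ranges of -0.11 to 0.23 for Runx1, -0.10 to 0.13 for Erg, -0.044 to 0.15 for Fli1, -0.018 to 0.20 for Lyl1, -0.029 to 0.11 for Lmo2, -0.07 to 0.21 for Ldb1 and -0.15 to 0.12 for Etv6. Other genes that changed sign with the myeloid level were Ep300 (0.11), Lmo4 (0.18), Mecom (-0.093), Spi1 (0.95), Meis1 (-0.21) and Angpt1 (-0.11), and with mice above 300 Spi1 (0.53) and Meis1 (-0.008). Leaving out 1 library gave -0.78 to 0.015 for Lmo4, -0.44 to 0.41 for Spi1 and -0.19 to 0.084 for Hhex. With the longest transcript as length the levels were 76.7 CPM per kb for Gata2, 44.7 for Runx1, 300 for Lmo2, 52.7 for Ldb1 and 32.3 for Cbfb. The cause of these changes was not tested.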
